A study of Mus musculus with 12 samples.

Results

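The mouse histone deacetylase genes Hdac1, Hdac2, Hdac3 and Hdac8 (class I), Hdac4, Hdac5, Hdac7 and Hdac9 (class IIa), Hdac6 (class IIb) and Hdac11 (class IV) are described here by their H3K27ac peaks. They were chosen by name, as 10 of the 21631 protein-coding genes on chromosomes 1 to 19 and X, and each was read over its span in the mouse build GRCm38 with 5 kb on each side. Hdac10, the other class IIb gene, is not in the set. H3K27ac, acetylation of lysine 27 of histone H3, was profiled by ChIP-seq in Azin2-/- and in wild-type adipocyte progenitors from subcutaneous fat of mice. Azin2 encodes antizyme inhibitor 2, which frees ornithine decarboxylase, the first enzyme of polyamine synthesis, from its inhibitor. Both genotypes had the same culture. Expansion took 1 week at 10% serum and 4.5 g/l glucose. Induction took 2 days with rosiglitazone (1 µM), dexamethasone (1 µM), the phosphodiesterase inhibitor IBMX (0.5 mM) and insulin (5 µg/ml), and insulin alone was given for 5 more days. There were 3 Azin2-/- libraries (replicates 1, 2 and 8) and 3 wild-type libraries (replicates 1, 2 and 2b). The age and sex of the mice, the structure of the knockout allele and whether replicates came from separate animals are not stated in the labels, so p-values measure only the spread between these libraries, which may be technical. The cells are labelled as progenitors although they had passed through an adipogenic schedule.

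Histone deacetylases remove acetyl groups from lysines, on histones and on many other proteins. Class I enzymes are mostly nuclear and work inside corepressor complexes: Hdac1 and Hdac2 in the Sin3, NuRD and CoREST complexes and Hdac3 with NCoR and SMRT. Class IIa proteins bind MEF2 transcription factors and move between nucleus and cytoplasm when they are phosphorylated, while Hdac6 is a cytoplasmic enzyme that acts on tubulin. In fat cells, Hdac3 with NCoR restrains the targets of PPARγ, and Hdac9 is known as a brake on adipogenic differentiation. A peak of H3K27ac at such a gene is a mark on its chromatin, and neither its transcript nor its enzyme activity was measured here.

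The deposited lists held 742335 to 1217494 peaks per library and were not filtered to strong peaks, so the 30000 peaks of smallest p in each list were compared. Background depth, worked out from each peak's deposited fold and p, was 0.255, 0.445 and 0.957 fragments per bp in Azin2-/- replicates 1, 2 and 8, against 0.125, 0.41 and 0.249 in wild-type replicates 1, 2 and 2b. By this estimate Azin2-/- replicate 8 had the deepest and wild-type replicate 1 the shallowest background, while read totals are unknown. In 2 pairs the estimates were nearly equal: Azin2-/- 1 with wild-type 2b, and Azin2-/- 2 with wild-type 2. The lists overlapped little, with a shared over joint length between 0.121 and 0.243 for the 15 pairs, and no pair was the same library under 2 names. The Azin2 gene (chromosome 4, 128930233 to 128962456) carried main peaks in every library, over 1176, 870 and 1492 bp in Azin2-/- replicates 1, 2 and 8 and over 1434, 1150 and 2426 bp in wild-type replicates 1, 2 and 2b, and peaks cannot check the genotype labels. Of the 12 progenitor markers, 3 (Pdgfra, Twist2 and Zfp423) had cover in all 6 libraries, and 0 had a peak at a gene end in all 6. The other progenitor markers had cover in 1 to 5 libraries. Of the 9 adipocyte markers, Cebpa and Plin1 had both cover and a peak at a gene end in all 6. Pparg had cover in 5 libraries, Cd36 in 4, Lpl in 2, and Fabp4, Cidec and Lep in 1 each. Adipoq had no cover in any library. Over all genes, 18% had a peak at a gene end in all 6 libraries.

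The promoters of these genes were placed with RefSeq windows on GRCm38.p6 of 300 bases, from 250 before to 50 after a transcription start. Such windows were found for 8 of the 10 genes, 12 windows in all; Hdac1 and Hdac3 have none in the table. The 5 windows below are shown because they span the range of acetylation seen among the members, from a peak in all 6 libraries at Hdac2 to no deposited peak of any strength at Hdac8. Sequences run 5′ to 3′ on the strand of the gene, and capitals mark each CG dinucleotide.
Hdac2 (chr10:36974294-36974593, plus strand): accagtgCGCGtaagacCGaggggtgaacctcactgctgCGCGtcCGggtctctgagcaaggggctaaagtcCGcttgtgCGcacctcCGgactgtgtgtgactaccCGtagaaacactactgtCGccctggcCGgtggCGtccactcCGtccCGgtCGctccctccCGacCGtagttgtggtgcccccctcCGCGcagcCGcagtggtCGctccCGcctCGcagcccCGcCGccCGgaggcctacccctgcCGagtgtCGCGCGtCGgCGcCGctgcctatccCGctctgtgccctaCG
Hdac11 (chr6:91156565-91156864, plus strand): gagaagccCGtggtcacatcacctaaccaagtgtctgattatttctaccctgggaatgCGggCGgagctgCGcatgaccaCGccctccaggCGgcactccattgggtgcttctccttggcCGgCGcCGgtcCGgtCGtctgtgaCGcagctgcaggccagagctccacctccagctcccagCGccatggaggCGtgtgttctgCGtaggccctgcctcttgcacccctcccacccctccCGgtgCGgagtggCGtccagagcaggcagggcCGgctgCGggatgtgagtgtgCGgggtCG
Hdac7 (chr15:97831446-97831745, minus strand): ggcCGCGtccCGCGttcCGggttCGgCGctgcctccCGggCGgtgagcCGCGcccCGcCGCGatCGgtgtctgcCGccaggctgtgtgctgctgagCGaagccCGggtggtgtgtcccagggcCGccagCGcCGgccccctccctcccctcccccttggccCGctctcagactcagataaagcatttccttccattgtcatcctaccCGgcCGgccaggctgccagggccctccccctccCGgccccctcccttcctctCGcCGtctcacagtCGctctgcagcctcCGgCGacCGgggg
Hdac6 (chrX:7947840-7948139, minus strand): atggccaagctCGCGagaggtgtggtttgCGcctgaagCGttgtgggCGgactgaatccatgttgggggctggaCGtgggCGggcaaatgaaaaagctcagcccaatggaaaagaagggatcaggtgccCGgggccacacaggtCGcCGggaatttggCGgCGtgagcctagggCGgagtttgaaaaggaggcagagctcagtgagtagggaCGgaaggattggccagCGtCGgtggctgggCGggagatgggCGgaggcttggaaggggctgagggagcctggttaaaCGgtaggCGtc
Hdac8 (chrX:102505109-102505408, minus strand): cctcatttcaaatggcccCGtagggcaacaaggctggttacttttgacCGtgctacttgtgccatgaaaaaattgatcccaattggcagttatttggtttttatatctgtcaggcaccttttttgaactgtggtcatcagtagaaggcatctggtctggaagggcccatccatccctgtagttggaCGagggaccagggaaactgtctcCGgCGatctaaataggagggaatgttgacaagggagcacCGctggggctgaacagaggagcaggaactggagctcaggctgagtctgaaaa

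The windows of Hdac2, Hdac11, Hdac7 and Hdac6 hold 36, 22, 31 and 20 CG dinucleotides, against a median of 13 over the 21045 windows of 17274 protein-coding genes, and that of Hdac8 holds 6. G and C make up 69.7% of the Hdac2 window and 49.7% of the Hdac8 window, and the median over all windows is 56.7%. Hdac4 and Hdac5 have windows with 32 and 18 CG dinucleotides. Hdac9 has a window with 3 and another with none, and the 3 other windows of Hdac7 hold 5, 6 and 35. Hdac2, Hdac4 and Hdac5 had a main peak over at least part of the window in all 6 libraries, which holds for 13.9% of all windows. At Hdac4 the peak reached over only 6 and 49 of the 300 bases in wild-type replicates 2 and 2b, and over 201 to 300 in the others. The 2 Hdac7 windows rich in CG had a main peak in every library except Azin2-/- replicate 8, and the Hdac11 window in 3 Azin2-/- libraries and 1 wild-type library. No library had a main peak over the windows of Hdac6, Hdac8 and Hdac9, as in 48.8% of all windows.

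Across the genome the windows with 20 or more CG dinucleotides had a peak in all 6 libraries in 32.4% of cases and in none in 9.04%. Windows with 0 to 9 had one in all 6 in 0.412% and in none in 87.7%. The deacetylase windows with 0 to 9 had a peak in at most 1 library. Those with 20 or more had one in 4 to 6 libraries, except that of Hdac6, which had none. Hdac5, with 18, had one in all 6, as 9.19% of the windows with 10 to 19. The letters GGGCGG, the core of the GC box bound by Sp1, were searched on both strands and match 5 times in the Hdac4 window, 5 times in the Hdac6 window and once each in those of Hdac2, Hdac5, Hdac11 and Hdac7 (the sequence shown). They occur in 46.7% of all windows. TATAAA, the TATA box, matches once in the Hdac8 window and once in the Hdac9 window without a CG, against 12.7% of all windows. CCAAT matches 2 times each in the windows of Hdac4, Hdac5, Hdac6 and Hdac8 and once in that of Hdac11, and is found in 38.5% of all windows. CACGTG, the E-box of basic helix-loop-helix factors, matches once, in the Hdac5 window, against 7.91% of all windows. TGACG, the core of the cyclic AMP response element, matches 3 times in the Hdac4 window, 2 times in that of Hdac5 and once in that of Hdac11, against 23.8% of all windows. Apart from the CCAAT and TATA motifs each holds a CG itself, none of the 5 contains another, and a match is a run of letters and not a measured binding site.

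**Figure D1:**
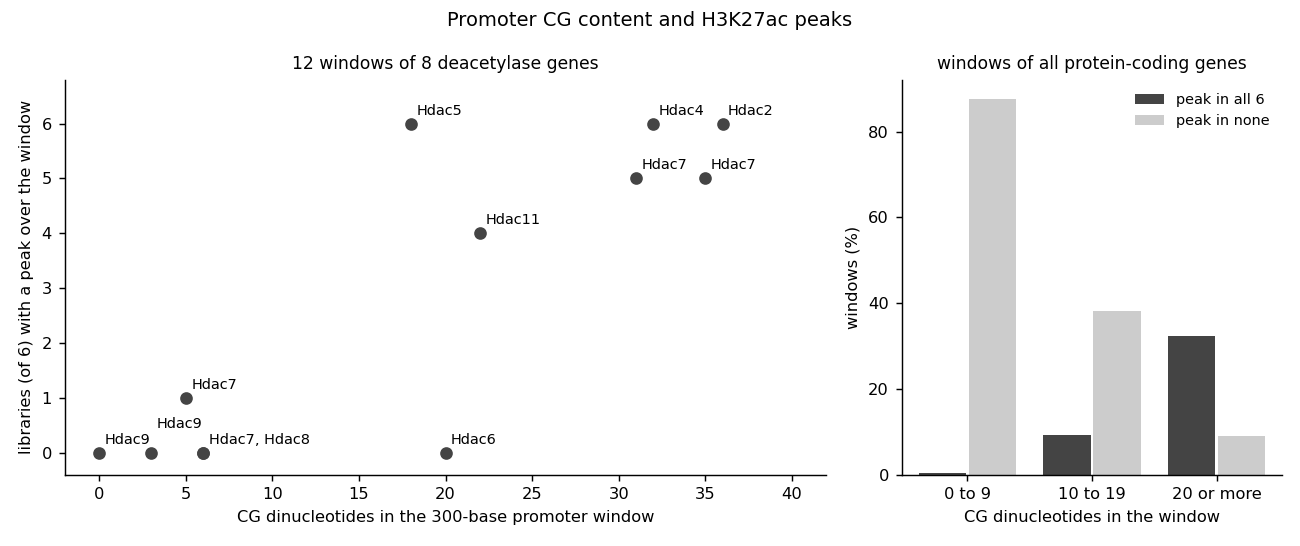
Left, the 12 promoter windows of 8 deacetylase genes, with the number of CG dinucleotides on the horizontal axis and the number of libraries (of 6) with one of the 30000 strongest peaks over the window on the vertical axis. Right, the percentage of all 21045 windows with a peak in all 6 libraries (dark bars) and in none (light bars), by CG number; Hdac6 sits at 20 CG dinucleotides and 0 libraries, apart from the other CG-rich windows.

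The loci differed widely in how much of their length carried strong peaks. Cover, the length of main peaks in the gene plus 5 kb at either side, was scaled so that total cover was equal in all libraries, and set against the length of the locus. The percentages here use scaled cover, while cover in bp per library, class or genotype is unscaled unless scaling is named. Hdac5 had 7.21% ± 2.67 of its locus covered (SD, n = 6 libraries of both genotypes), Hdac1 6.88% ± 2.84, Hdac3 5.96% ± 3.29, Hdac7 5.84% ± 3.67 and Hdac2 4.12% ± 1.10. Neighbours among these 5 differ by less than the larger of their SDs. At Hdac1 and Hdac3 the cover includes regions outside the gene, at the adjoining genes Marcksl1 and Diaph1. The Diaph1 region held all wild-type cover at Hdac3 and part of the Azin2-/- cover. The percentages of Hdac1 and Hdac3 therefore do not describe the gene bodies alone. Hdac11 followed with 1.53% ± 1.26, and its highest library (2.89%) lies below the lowest of Hdac2 (2.99%). Next came Hdac4 with 1.33% ± 0.487 and Hdac9 with 0.486% ± 0.178. Hdac8 had 0.0858% ± 0.156 and Hdac6 had no cover in any library. Hdac9 is by far the longest gene, with 869516 bp, and Hdac6 the shortest, with 17932 bp, so that cover in base pairs is not comparable between them.

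Hdac8 and Hdac6 are the X-linked members. Of the 966 X-linked protein-coding genes 50.9% had no cover in any library, against 15.9% of autosomal genes, and 2.07% had an end peak, one reaching to 1 kb or less from either end of the gene, in all 6 libraries, against 18.7% of autosomal genes. Whether this plays a part at Hdac8 and Hdac6 was not tested. Of all 10 members, Hdac2 and Hdac5 had a main end peak in all 6 libraries, which holds for 18% of all genes. Hdac6, Hdac7, Hdac8 and Hdac9 had one in no library, as 38.1% of all genes. Hdac3 had one in all 3 Azin2-/- libraries and no wild-type library, a pattern of 0.851% of all genes (184 of 21631). The reverse pattern was found at 13 genes (0.0601%), none of them a deacetylase.

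**Figure D2:**
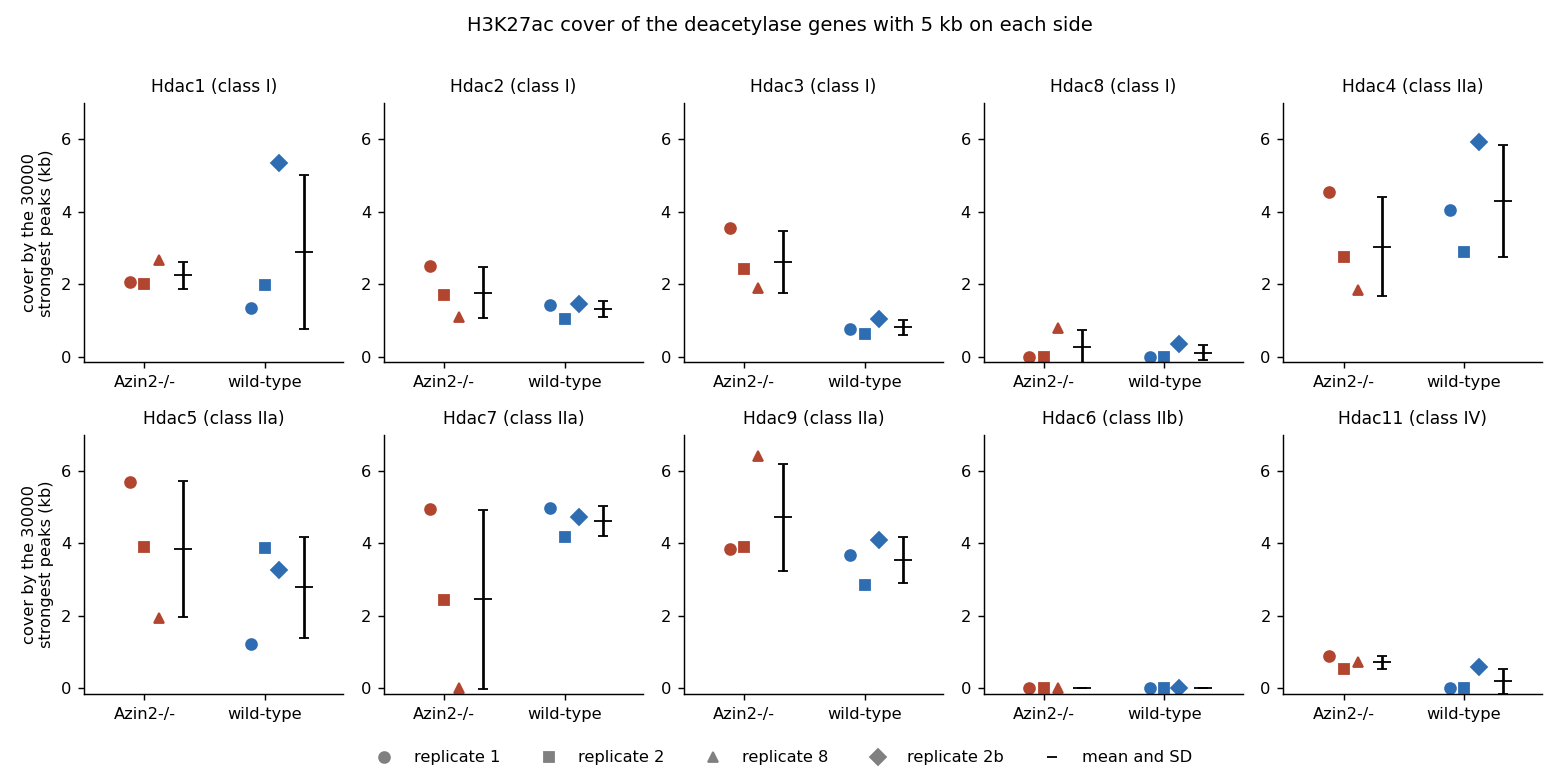
Cover by the 30000 strongest peaks (kb, not scaled) within each deacetylase gene and 5 kb on each side, with 1 symbol per library, Azin2-/- in red on the left and wild-type in blue on the right of each panel, and the mean with its SD beside them. At Hdac3 all 3 Azin2-/- libraries lie above all 3 wild-type libraries, and at Hdac7 Azin2-/- replicate 8 is at 0.

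Between genotypes, no deacetylase locus passed the threshold, an adjusted p under 0.05 in limma over the 11670 loci with a mean of at least 500 bp. No locus of any gene did so in either direction (0%). Unadjusted p-values under 0.05 came with a positive difference at 506 loci and with a negative one at 249. Of the members 7 were tested and 3 (Hdac6, Hdac8 and Hdac11) fell under the minimum, while 54% of all genes had cover enough to be tested. Of the members, Hdac3 had such a p with a positive difference, as 4.34% of all loci, and Hdac7 with a negative one, as 2.13%. Differences are log2 values of scaled cover plus 500 bp, Azin2-/- minus wild-type. The 7 tested members had 4 positive and 3 negative differences with a median of 0.17, against 54.6% positive and a median of 0.07 over all loci. In bulk chromatin, a different share of cells of a type and a different mark per cell cannot be told apart.

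Hdac3, the catalytic subunit of the NCoR and SMRT corepressors (chromosome 18, 37936971 to 37955015), had the largest positive difference of the tested members. It had 3566, 2417 and 1889 bp of cover in Azin2-/- replicates 1, 2 and 8, against 774, 632 and 1051 bp in wild-type replicates 1, 2 and 2b. Every Azin2-/- library lay above every wild-type library, as at 6.72% of loci tested in this direction. No member had all Azin2-/- libraries below all wild-type libraries, as at 4.93%. Mean cover before scaling was 2624 ± 857 bp for Azin2-/- libraries and 819 ± 213 bp for wild-type ones (SD, n = 3 each). After scaling the means were 2475 ± 394 bp and 870 ± 199 bp. The log2 difference was 1.12 with SE 0.35, and the limma p of 0.00847 (103rd smallest of 11670) was 0.743 after adjustment. The 2 pairs of nearly equal depth showed 3566 against 1051 bp and 2417 against 632 bp, and with depth as a covariate the difference was 1.35 (limma adjusted p = 0.999). It was between 1.01 and 1.22 with any 1 library left out.

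Most of this cover lay at the borders with neighbouring genes rather than inside Hdac3. A region at the end of Diaph1, an actin regulator (chr18:37934324-37935975), had main peaks in all 6 libraries, over 1652, 1250 and 1049 bp in Azin2-/- replicates 1, 2 and 8 and 774, 632 and 1051 bp in wild-type replicates 1, 2 and 2b (log2 difference 0.46, limma adjusted p = 0.603). A second region lies over the end of Hdac3 with the higher coordinate, 38 bp from the start of the span of Rell2 (chr18:37953991-37956478). It carried 1914, 1167 and 481 bp in Azin2-/- replicates 1, 2 and 8 and none in the wild-type lists. Its log2 difference, with 200 bp added, was 2.60 with SE 0.83 (limma adjusted p = 0.603). The region entered the main lists through the Azin2-/- libraries alone, so a positive difference was given, and its size depends on the added length (4.39 with 50 bp). After scaling, the Diaph1 region had every Azin2-/- library above every wild-type library, as at 5.22% of regions tested in this direction. At the second region the same order was given by its entry through Azin2-/- lists alone. Weaker peaks of wild-type replicates 1, 2 and 2b lay there too, at ranks 650488, 124604 and 52840 of their lists, while the peaks of Azin2-/- replicates 1, 2 and 8 had ranks 9259, 11145 and 3847. With 60000 peaks per list the peak of wild-type replicate 2b therefore counts, and Hdac3 no longer has an end peak in Azin2-/- alone. That peak begins 19.043 kb from the low end, past the Hdac3 end at 18.044 kb, and barely meets the 1 kb bound. A weaker peak of that library (17.633 to 18.268 kb) lies over the end itself.

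The direction at Hdac3 depended on how many peaks were read. Over all deposited peaks the locus had 6004, 7309 and 3130 bp in Azin2-/- replicates 1, 2 and 8 against 4092, 6784 and 9249 bp in wild-type replicates 1, 2 and 2b, a log2 difference of -0.36. Among the 5000 strongest peaks of each list it was -0.66, with 0, 0 and 1530 bp in the Azin2-/- libraries and 774, 632 and 1051 bp in the wild-type libraries. In these short lists the Diaph1 peak was present in Azin2-/- replicate 8 and all 3 wild-type libraries, and the peak at the high end of Hdac3 in Azin2-/- replicate 8 alone.

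**Figure D3:**
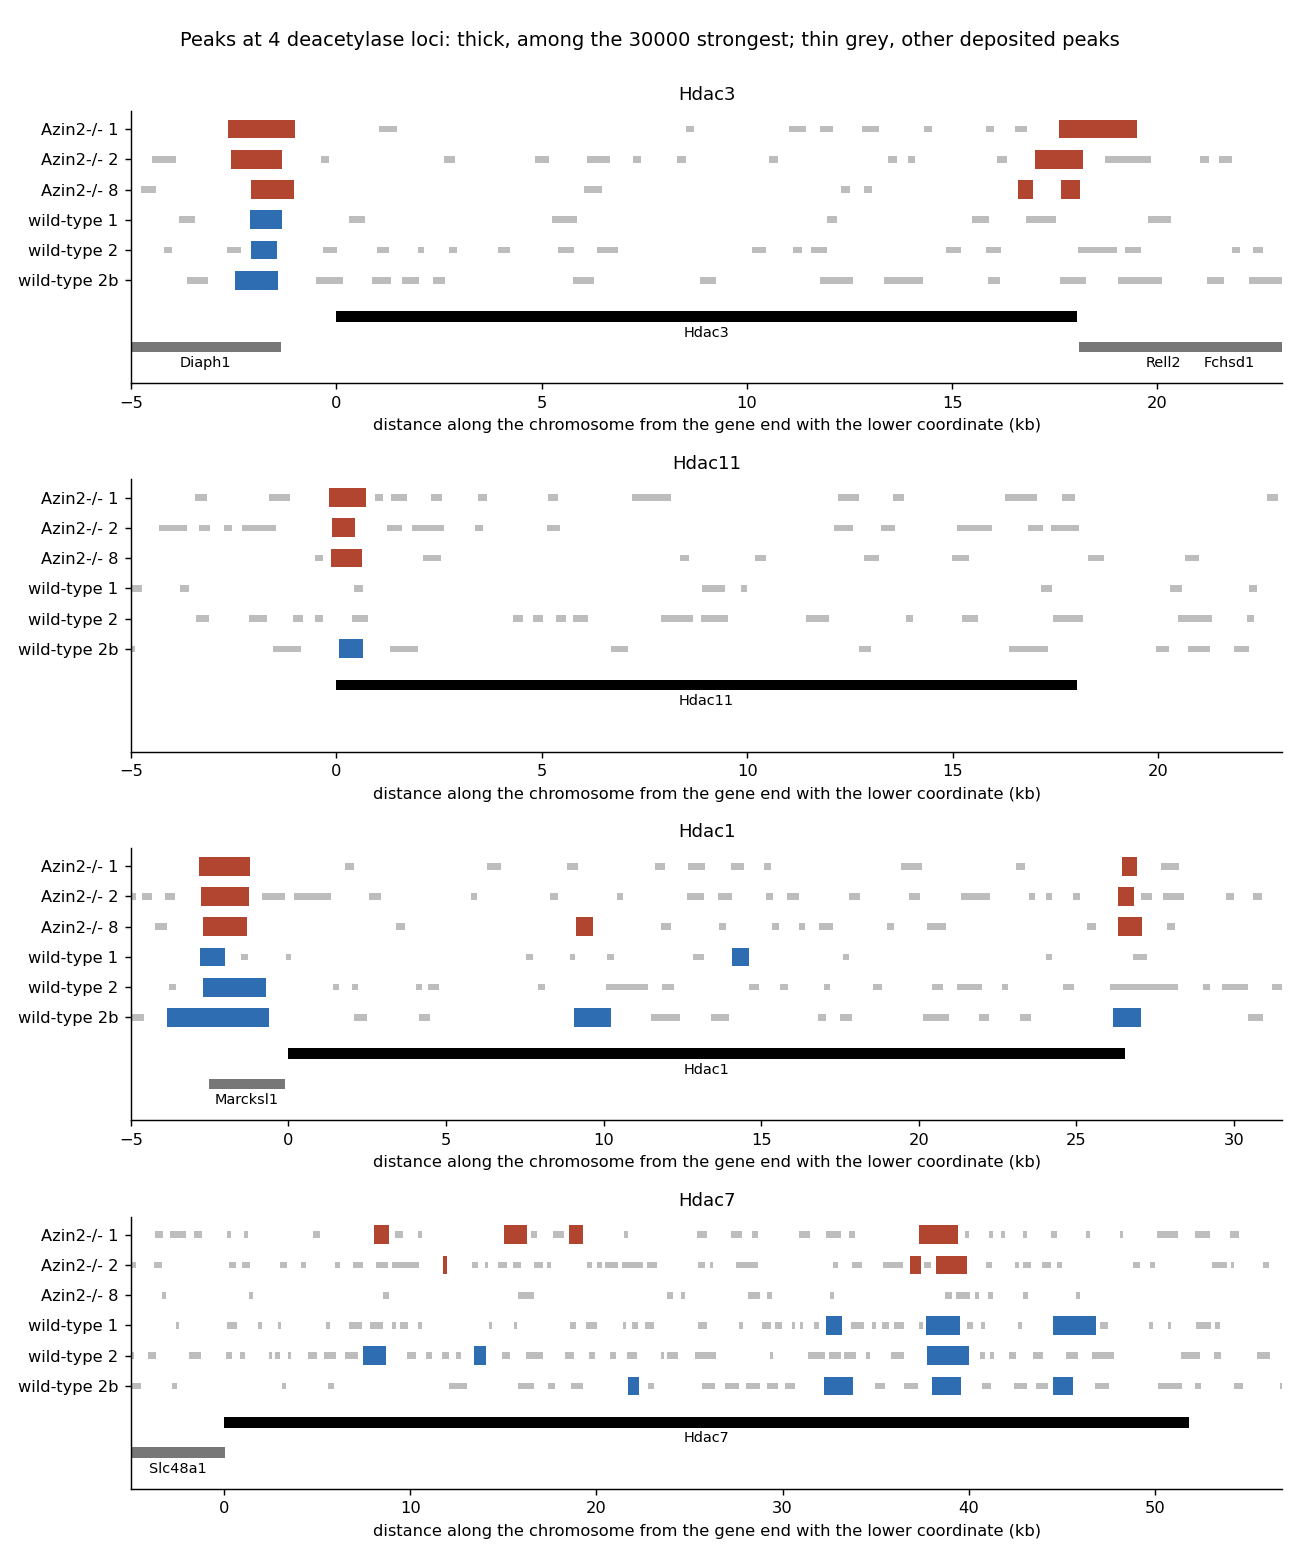
Peaks of each library at the loci of Hdac3, Hdac11, Hdac1 and Hdac7, by distance in kb from the gene end with the lower coordinate, with the gene in black and protein-coding neighbours in grey below. Thick bars are among the 30000 strongest peaks (red, Azin2-/-; blue, wild-type) and thin grey bars are weaker deposited peaks; at the right end of Hdac3 the thick bars are red only.

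Hdac1 (chromosome 4, 129516104 to 129542646), 554 kb from Azin2, had 2075, 2000 and 2680 bp in Azin2-/- replicates 1, 2 and 8 and 1363, 1986 and 5336 bp in wild-type replicates 1, 2 and 2b. The genotypes overlapped, and wild-type replicate 2b alone held the widest cover. The log2 difference was -0.23 with SE 0.38 (limma adjusted p = 0.92), and without wild-type replicate 2b it was 0.10. In 5 of 6 libraries the strongest peak had its summit 2329 to 2473 bp beyond the low end, in the neighbouring gene Marcksl1, a substrate of protein kinase C that binds actin, whose span comes within 122 bp of Hdac1. The region there (chr4:129512236-129515492) was held by all 6 libraries (log2 difference -0.33, limma adjusted p = 0.603).

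At the other end of Hdac1 (chr4:129542277-129543191) the cover was 472, 497 and 759 bp in Azin2-/- replicates 1, 2 and 8 against 0, 0 and 879 bp in wild-type replicates 1, 2 and 2b. The genotypes overlapped through wild-type replicate 2b, and the log2 difference was 1.17 with SE 0.90 (limma adjusted p = 0.603). Among the 5000 strongest peaks the locus held 1603, 1503 and 759 bp in the Azin2-/- libraries and none in the wild-type libraries, where the strongest peaks ranked 5277 to 5725. That cover gave a log2 difference of 1.81 with SE 0.48 (limma adjusted p = 0.197). The locus met the minimum there through Azin2-/- libraries alone, so a positive difference was given. In this short list the Azin2-/- cover came from the Marcksl1 peak in replicates 1 and 2 and from the peak at the Hdac1 end in replicate 8.

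Hdac2, the close paralogue of Hdac1 (chromosome 10, 36974297 to 37001889), had 1 region held by every library, at its start. It (chr10:36973462-36975394) contains the promoter shown above. It was covered over 1933, 1285 and 1101 bp in Azin2-/- replicates 1, 2 and 8 and 1437, 1059 and 1454 bp in wild-type replicates 1, 2 and 2b, and it was the only one of 88 member regions with at least 50% of its length covered in all 6 libraries. The genotypes did not separate, with a log2 difference of -0.04 and SE 0.33 for the region (limma adjusted p = 0.978) and 0.17 with SE 0.37 for the locus (limma adjusted p = 0.938).

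The strength of the Hdac2 peak varied between lists. It ranked 4587, 1331 and 9858 in Azin2-/- replicates 1, 2 and 8 and 75, 208 and 197 in wild-type replicates 1, 2 and 2b. The authors' fold over background was 13.5, 8.47 and 2.03 in the Azin2-/- lists and 16.3, 13.3 and 17.6 in the wild-type lists. The folds of the genotypes overlapped, since that of Azin2-/- replicate 1 lies above that of wild-type replicate 2. Azin2-/- replicate 8, of deepest estimated background, had the lowest fold. Fold and rank belong to a peak within its own list, and since the lists differ in length and depth, ranks do not compare the genotypes.

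Hdac8, an X-linked enzyme that deacetylates the cohesin subunit Smc3, had 0, 0 and 812 bp in Azin2-/- replicates 1, 2 and 8 and 0, 0 and 354 bp in wild-type replicates 1, 2 and 2b over a locus of 230744 bp. The 2 peaks lay at different places inside the gene (chrX:102284638-102505381). Over the promoter shown above no list held a peak, at any strength. Summed over class I, cover was 8151, 6122 and 6482 bp in Azin2-/- replicates 1, 2 and 8 and 3574, 3677 and 8195 bp in wild-type replicates 1, 2 and 2b. The genotypes thus overlapped through wild-type replicate 2b. These sums include the regions at Marcksl1 and Diaph1, outside Hdac1 and Hdac3.

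Among class IIa genes Hdac7 (chromosome 15, 97792661 to 97844502) had the lowest difference. It had 4944, 2435 and 0 bp in Azin2-/- replicates 1, 2 and 8, against 4973, 4167 and 4733 bp in wild-type replicates 1, 2 and 2b. After scaling the genotypes overlapped, since Azin2-/- replicate 1 had 3974 bp and wild-type replicate 2b 3932 bp. The log2 difference was -1.53 with SE 0.68 (limma adjusted p = 0.762). Without Azin2-/- replicate 8 it was -0.57 (limma adjusted p = 0.85), and with background depth as a covariate it was -0.39 (limma adjusted p = 0.999). Azin2-/- replicate 8 is the library of highest estimated background depth. Whether depth plays a part in the Hdac7 values was not tested.

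The main site of Hdac7 lies inside its longest span, over the 2 start sites rich in CG (chr15:97829513-97832665), partly within the span of the lncRNA gene Gm33636, and no main peak lay at the outermost ends. Cover there was 2099, 2222 and 0 bp in Azin2-/- replicates 1, 2 and 8 and 1818, 2275 and 1535 bp in wild-type replicates 1, 2 and 2b. The log2 difference was -1.16 with SE 0.71 (limma adjusted p = 0.603), and -0.01 without Azin2-/- replicate 8. That library did hold a weak peak over the promoter shown above, at rank 117829. A second region inside the gene (chr15:97837158-97839468) was covered in none of the Azin2-/- libraries and over 2311, 0 and 1059 bp in wild-type replicates 1, 2 and 2b (log2 difference -2.17 with SE 1.04, limma adjusted p = 0.603). It entered the main lists through wild-type libraries alone, so a negative difference was given.

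Hdac5 (chromosome 11, 102195747 to 102230172) had 5706, 3903 and 1934 bp in Azin2-/- replicates 1, 2 and 8 and 1228, 3877 and 3260 bp in wild-type replicates 1, 2 and 2b, with overlapping genotypes (log2 difference 0.30, SE 0.39, limma adjusted p = 0.898). Its promoter region (chr11:102228378-102231528) was acetylated in all 6 libraries, over 2249, 1096 and 903 bp in Azin2-/- replicates 1, 2 and 8 and 665, 822 and 2071 bp in wild-type replicates 1, 2 and 2b. The span of Mir8101, a microRNA gene, falls within it. The region of smallest p lies inside the gene (chr11:102206097-102207547) and had 1060, 1323 and 1031 bp in the Azin2-/- libraries against 0, 856 and 1189 bp in the wild-type libraries (log2 difference 1.02, SE 0.74, limma adjusted p = 0.603). Without wild-type replicate 1 this difference was 0.18, and with background depth as a covariate 0.23.

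Hdac4 (chromosome 1, 91928779 to 92195702), known for holding back MEF2 in muscle and cartilage, had 4538, 2760 and 1837 bp in Azin2-/- replicates 1, 2 and 8 and 4062, 2896 and 5936 bp in wild-type replicates 1, 2 and 2b. The log2 difference was -0.59 with SE 0.36 (limma adjusted p = 0.793), and the genotypes overlapped. Its RefSeq promoter region (chr1:92179104-92181488) was acetylated in all 6 libraries, with 2247, 927 and 1437 bp in the Azin2-/- libraries and 1329, 708 and 2115 bp in the wild-type libraries, a log2 difference of 0.04. A region farther inside (chr1:91981751-91983497) was covered over 1224, 732 and 0 bp in Azin2-/- replicates 1, 2 and 8 and in none of the wild-type libraries (log2 difference 1.60, SE 0.96, limma adjusted p = 0.603). That region entered the main lists through Azin2-/- libraries alone, so a positive difference was given. Of the 21 regions of this locus 18 were held by a single library, near the share over all regions (85.8%).

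Hdac9 (chromosome 12, 34047580 to 34917095) had 3845, 3889 and 6416 bp in Azin2-/- replicates 1, 2 and 8 and 3691, 2845 and 4099 bp in wild-type replicates 1, 2 and 2b (log2 difference 0.22, SE 0.38, limma adjusted p = 0.923). Of its 37 regions 34 were held by 1 library and none by all 6, near the shares over all 128486 regions, of which 85.8% were held by 1 library and 3.23% by all 6. The region most widely held lies about 10 kb inside the high end (chr12:34906061-34908037), with 1597, 963 and 487 bp in Azin2-/- replicates 1, 2 and 8 and 0, 1385 and 1939 bp in wild-type replicates 1, 2 and 2b (log2 difference 0.37, limma adjusted p = 0.84). Summed over class IIa, cover was 19033, 12987 and 10187 bp in the Azin2-/- libraries and 13954, 13785 and 18028 bp in the wild-type libraries, again with overlap.

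Hdac6, the class IIb tubulin deacetylase (chrX:7930116-7948047), had no main peak in any library. Its strongest deposited peaks ranked 39796, 418877 and 95070 in Azin2-/- replicates 1, 2 and 8 and 276426, 118019 and 114329 in wild-type replicates 1, 2 and 2b. Only that of Azin2-/- replicate 8 lay over the promoter shown above. That a peak is missing from the main lists does not show that the mark is absent.

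Hdac11, the class IV enzyme, which removes long fatty acyl groups and is known as a brake on brown fat genes (chromosome 6, 91156670 to 91174692), had a single region at its start (chr6:91156497-91157398). It was covered over 902, 542 and 735 bp in Azin2-/- replicates 1, 2 and 8 and over 0, 0 and 587 bp in wild-type replicates 1, 2 and 2b, and in wild-type replicates 1 and 2 no deposited peak of any strength touched the promoter window shown above. Weak peaks of these libraries lay elsewhere in the region, at ranks 570775 and 387885 of their lists. After scaling the lowest Azin2-/- library lay above the highest wild-type library, as at 5.22% of regions in this direction, and 2.62% separated in the other. The log2 difference of the region was 1.56 with SE 0.86 (limma adjusted p = 0.603), and 2.74 with 50 bp added in place of 200. None of 22205 regions tested passed in either direction (0%), while at an unadjusted p under 0.05 there were 4.05% with a positive and 1.46% with a negative difference. As a locus Hdac11 fell under the minimum and was not tested. Of all promoter windows 3.61% had a main peak in all 3 Azin2-/- libraries and in at most 1 wild-type library, and 0.656% the reverse.

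**Figure D4:**
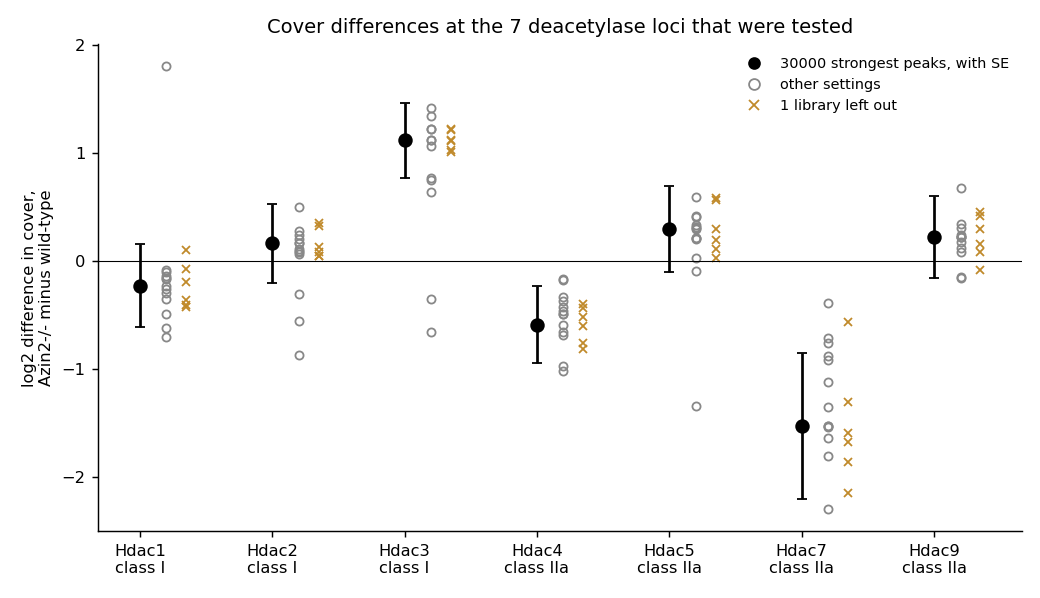
Log2 difference in scaled cover, Azin2-/- minus wild-type, at the 7 tested deacetylase loci: black points with SE are the values over the 30000 strongest peaks, open circles other settings, and crosses the values with 1 library left out. Hdac3 lies above 0 except among the 5000 strongest and all deposited peaks (-0.66 and -0.36), and Hdac4 and Hdac7 lie below 0 throughout.

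The rank of the strongest peak describes the most prominent peak of each locus. The highest ranks were 75, 208 and 197 in wild-type replicates 1, 2 and 2b at Hdac2, 249 in wild-type replicate 1 at Hdac7, 907 in wild-type replicate 2 at Hdac5 and 927 in wild-type replicate 1 at Hdac4. None of the 10 genes had one of the 5000 strongest peaks at a gene end in all 6 libraries, against 3.83% of all genes. The best rank was 1636 at Hdac1 (Azin2-/- replicate 1), 2545 at Hdac3 (wild-type replicate 2b) and 3820 at Hdac9 (Azin2-/- replicate 8). Hdac11 reached 5370 in Azin2-/- replicate 8 and Hdac8 25787 in wild-type replicate 2b. Lists differ in length and depth, so these ranks do not compare the genotypes. Longer loci also hold more deposited peaks, 264 to 314 per library at Hdac9 and 4 to 18 at Hdac6. The peaks named for Hdac1 and Hdac3 have summits 2329 and 1749 bp outside the gene, at Marcksl1 and Diaph1. The ranks therefore do not order the genes by acetylation.

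**Figure D5:**
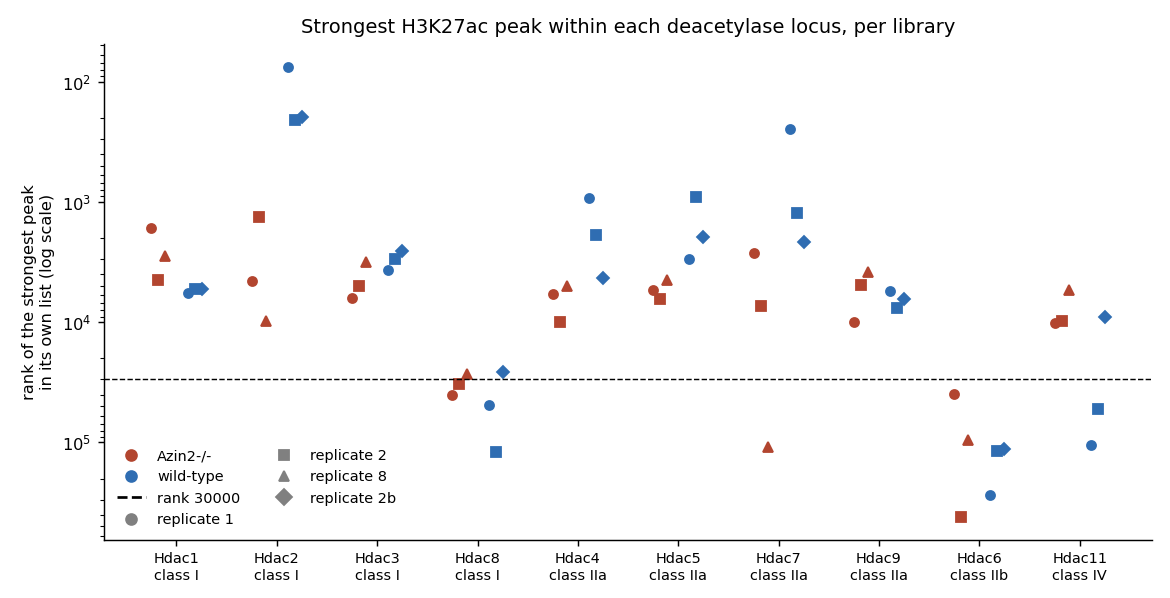
Rank of the strongest peak within each deacetylase locus in its own list (log scale, strongest at the top), Azin2-/- in red left of wild-type in blue for each gene. Ranks span 75 to 9858 at Hdac2 and 3820 to 9965 at Hdac9, and all peaks of Hdac6 lie below the dashed line at rank 30000; ranks describe a peak within its own list and do not compare the genotypes.

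Genes that work with the deacetylases showed no locus past the threshold. All 20 genes of the Sin3, NuRD and CoREST complexes were tested, with 6 positive and 14 negative differences and a median of -0.20. Over all loci 54.6% were positive and the median was 0.07. Of the 20 genes, 14 had a peak at a gene end in all 6 libraries, against 18% of all genes. Gatad2b, a NuRD subunit, had the smallest p on the lower side, with 1342, 1215 and 0 bp in Azin2-/- replicates 1, 2 and 8 and 1411, 1225 and 3060 bp in wild-type replicates 1, 2 and 2b (log2 difference -1.09, limma adjusted p = 0.773). On the higher side Mta1, another NuRD subunit, had a log2 difference of 0.41 (limma adjusted p = 0.851). The 5 genes of the NCoR and SMRT complex had 3 positive and 2 negative differences and a median of 0.09, between 0.31 at Ncor1 and -0.58 at Tbl1x for the named ones (limma adjusted p = 0.885 and 0.865).

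Of the 17 partners of class IIa proteins 7 were positive and 10 negative, with a median of -0.19. Camk4, a calcium-dependent kinase that phosphorylates class IIa proteins, was the only listed partner with an unadjusted limma p under 0.05. Over all loci 4.34% had such a p with a positive difference and 2.13% with a negative one. Camk4 had 4132, 4143 and 1926 bp in Azin2-/- replicates 1, 2 and 8 against 617, 1651 and 2313 bp in wild-type replicates 1, 2 and 2b, a log2 difference of 0.90 with SE 0.38 (limma adjusted p = 0.758). Prkd1, protein kinase D1, had a log2 difference of -1.10 (limma adjusted p = 0.792). Of the 7 sirtuins, deacetylases of another family that need NAD, 4 were tested, with 0.47 at Sirt5 and -0.28 at Sirt4 as the named values and a median of 0.05. Of the 6 listed substrates and partners of Hdac6 and Hdac8, 4 were tested, with a median of -0.11, 0.93 at Ubd and -0.17 at Hsp90aa1.

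The loci whose cover over the 6 libraries was most like the class I sum were Bud13 (Pearson r = 0.993), Zfp804b (0.983) and Srrm2 (0.98), out of 11441 loci more than 1 Mb from any member. For the class IIa sum they were Sfmbt2 (0.989), Fgfr1 (0.986) and Farp2 (0.982). With only 6 libraries, whose main lists have equal length and unequal depth, and 11441 loci to choose from, these values are descriptions. The class I sum also holds the cover at Marcksl1 and Diaph1.

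Markers of other cell types also varied between libraries. Summed cover of markers is given here unscaled, while total main cover ran from 16.9 Mb in wild-type replicate 1 to 28.9 Mb in Azin2-/- replicate 1. The ranges below therefore do not compare the genotypes at equal totals. The 4 muscle markers had summed cover of 4.2 to 6.5 kb in Azin2-/- libraries and 0 to 4.5 kb in wild-type libraries, and the 5 leukocyte markers 1.4 to 2.8 kb and 0.8 to 1.5 kb. The 5 endothelial markers had 2.5 to 5.6 kb in Azin2-/- and 0.8 to 5.1 kb in wild-type. The 12 progenitor markers had 9.4 to 25.9 kb in Azin2-/- and 18 to 23 kb in wild-type, and the 9 adipocyte markers 4.8 to 6.8 kb and 3.9 to 8.7 kb. None of these ranges was set against the deacetylase loci, and their part in the values at Hdac3 or Hdac11 was not tested.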

How the data were processed

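The build is GRCm38 (mm10), per the submitters' processing notes, and each library has its own peak list. The sources used here do not name the aligner, caller or control. The 6 input libraries were not analysed here. Each deposited list gives, by the authors, a fold ratio of a peak over its background, its -log10 p and -log10 q, and a score formed from that p. Peaks down to a p of about 0.1 are listed. These values served only to rank and filter peaks within a list.

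The main peaks of a library were its 30000 of smallest p on chromosomes 1 to 19 and X, a length that gives every library an equal number of peaks whatever its depth. Cover of a gene, with 5 kb added at either side, was scaled to equal totals, 500 bp were added, and log2 values with a mean cover of at least 500 bp were compared in limma 3.58.1 (eBayes with a trend, R 4.3.3), with Benjamini-Hochberg adjustment over all loci and a threshold of 0.05. Regions were main peaks of the 6 lists merged where they overlap by 1 bp or more, with 200 bp in place of 500. Spans and promoters are those of RefSeq for GRCm38.p6. The scripts (Python 3.11.15) were tested on simulated data. The members and lists were chosen with earlier results of these data known. The result of 1 list of cell type markers is not reported here. All members are named, with the region of largest mean cover and of smallest p at each, and the tested partner of smallest p in each direction. Replicate numbers 1 and 2 occur in both genotypes, and no label says that a number marks a shared animal or day. Alternatives were other list lengths, a q of 0.01 or less, other windows, minimums, added lengths and scalings, background depth as a covariate, the replicate block, and libraries left out.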

Additional observations from a re-analysis of the deposited data

How the results depend on the processing

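No member passed the threshold under any alternative, and of the 7 tested loci Hdac4 and Hdac7 kept their direction in all. Counts past the threshold over all genes were 0 except with peaks of a q of 0.01 or less, which gave 22 loci higher and 4 lower in Azin2-/- and 3 regions lower, and with no minimum, which gave 16 regions higher and 46 lower. With the 5000 strongest peaks the log2 difference was 1.81 at Hdac1, -0.55 at Hdac2, -0.66 at Hdac3 and -1.34 at Hdac5, and for the regions 2.03 at Marcksl1 beside Hdac1, -1.39 at Diaph1 beside Hdac3, -1.66 at the Hdac4 promoter and -1.77 at the Hdac5 promoter. With all deposited peaks it was -0.31 at Hdac2, -0.36 at Hdac3, -0.088 at Hdac5 and -0.16 at Hdac9. With a q of 0.01 or less it was -0.87 at Hdac2, -0.49 at the Hdac4 promoter and -0.19 at the Hdac5 promoter. The region at the start of Hdac2 turned to 0.091 with no scaling and 0.25 with depth as a covariate, the Hdac4 promoter to -0.10 with wild-type 2 and 2b averaged, and the Hdac9 region to -0.19 with depth as a covariate. The cause of these turns was not tested. At Hdac1 and Marcksl1 only Azin2-/- libraries had cover among the 5000 strongest peaks, so a positive difference was given there.

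With 1 library left out, the difference ran from -0.42 to 0.10 at Hdac1 (above 0 without wild-type replicate 2b), from -0.082 to 0.46 at Hdac9 (below 0 without Azin2-/- replicate 8), from 0.045 to 0.36 at Hdac2 (lowest without Azin2-/- replicate 1), from 0.028 to 0.59 at Hdac5 (lowest without wild-type replicate 1, highest without Azin2-/- replicate 8), from -0.82 to -0.40 at Hdac4, from 1.01 to 1.22 at Hdac3 and from -2.15 to -0.57 at Hdac7, where the value nearest 0 came without Azin2-/- replicate 8. For regions it ran from -0.17 to 0.19 at Hdac2, -0.32 to 0.28 at the Hdac4 promoter, -0.070 to 0.43 at the Hdac5 promoter and -0.67 to 0.92 at Hdac9. Genes with an end peak in every library numbered 0 with the 5000 strongest peaks and 1 at a q limit of 0.01, and 2 to 3 with a library left out. Those with one in all Azin2-/- and no wild-type libraries numbered 0 with 5000 or 60000 peaks, 0 at 2 kb from the end and 0 over promoter windows (an alternative chosen after seeing the data), 2 with the peak over the end itself (Hdac3 and Hdac11), and 1 to 2 with a library left out (2 without wild-type replicate 2b). Of the 5 regions held by all 6 libraries 1 was left when at least 50% of the region had to be covered. Scaling moved the median of all regions to 0.17, against 0.29 without it.

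The replicate block, with numbers 1, 2, 8 and 2b as levels, rests on 2 shared numbers. The libraries of these numbers correlated at -0.04 and 0.12 in their departures from the mean of their genotype. Taken between libraries of unequal depth, such values cannot tell whether the libraries share an animal or day. The block changed no call and gave -0.14 at Hdac9, 1.23 at Hdac3 (limma adjusted p = 0.613) and -0.72 at Hdac7. Hdac3 had too little cover in its gene body alone, and Hdac9 in the 5000 strongest peaks, to be tested. Read totals are unknown, so how much of a missing peak is due to depth was not tested.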
